A study of Mus musculus with 6 samples.

Results

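Retinal cells of healthy mice were described through the brightness of 597 capture probes that name a mouse microRNA (miRNA). The samples were the 3 naive ones among the 6 of the series, taken from B10.RⅢ mice aged 8 weeks that were labelled as free of disease. The series as a whole set such cells against retinal cells of mice that were developing experimental autoimmune uveoretinitis, an immune disease of the retina, on day 14; those 3 samples entered only as part of a common reference. From each sample 800 ng of total RNA carried the dye Hy3, while a blend of equal amounts of the samples carried Hy5. The mixture was hybridised to miRCURY LNA arrays, whose capture probes contain locked nucleic acid. The samples were harvested separately, but how many mice went into each is not given in the sources used here. Each had its own labelling and array, so every SD below mixes the spread between harvests with that of labelling and array. Every probe whose name holds a mouse miRNA was a member, with no choice by brightness. The signal of a probe was the median over its spots of the Hy3 brightness minus the local background, in the scanner's arbitrary units, and its level was the mean over the 3 arrays.

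MiRNAs are short RNAs that guide Argonaute proteins to messenger RNAs, mostly by pairing of the bases near their 5′ end, called the seed, and lower the output of those messages. The neural retina is made mainly of photoreceptors and other neurons, and it is known for miR-124, the leading miRNA of neurons, and for the miR-183, miR-96 and miR-182 cluster of photoreceptors and other sensory cells. MiR-204 and miR-211 are known from the retinal pigment epithelium, which lies against the photoreceptors. Brightness of different probes also reflects how well each probe captures its target and how its dye label performs, so the order below is one of probe signals and is not calibrated to copies of RNA.

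Mature sequences are given for the members that the order turns on, from RefSeq on GRCm38.p6, written 5′ to 3′ with the seed, bases 2 to 8, in capitals. Of the 25 brightest probes 20 found a sequence there; miR-124, miR-720, miR-709, miR-875-3p and miR-1959 are named only. The first 6 lines are the members of the 10 brightest probes that found one.
miR-690: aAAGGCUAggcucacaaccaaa
miR-207: gCUUCUCCuggcucuccucccuc
let-7e: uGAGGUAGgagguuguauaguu
miR-691: aUUCCUGAagagaggcagaaaa
miR-668: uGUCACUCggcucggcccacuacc
miR-34b-3p: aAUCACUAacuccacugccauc
The next 6 are the miRNAs known from photoreceptors, pigment epithelium and neural progenitors.
miR-183: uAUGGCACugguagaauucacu
miR-96: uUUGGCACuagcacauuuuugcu
miR-182: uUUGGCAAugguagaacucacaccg
miR-204: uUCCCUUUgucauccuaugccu
miR-211: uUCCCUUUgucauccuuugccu
miR-9: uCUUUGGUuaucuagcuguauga
The last 6 are the brighter and the dimmest let-7 probes and the other members of broadly expressed families among the 25 brightest.
let-7c: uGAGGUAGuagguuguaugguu
let-7b: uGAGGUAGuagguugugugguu
let-7a: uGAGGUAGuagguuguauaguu
let-7i: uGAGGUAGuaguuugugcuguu
miR-181a: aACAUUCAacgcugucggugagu
miR-125b-5p: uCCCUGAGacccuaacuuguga

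The genes of these miRNAs are spread over the genome. MiR-690 comes from chr16:28599940-28599961 on the minus strand, miR-207 from chr4:40722968-40722990 on the plus strand, and miR-691 from chr16:74342005-74342026 on the minus strand. MiR-183, miR-96 and miR-182 lie on the minus strand within 3771 bases, at chr6:30165962-30169732. MiR-204 lies at chr19:22750610-22750631 and miR-211 at chr7:64205831-64205852, both on the plus strand. The 20 sequences among the 25 brightest probes held 20 distinct seeds, so no pair of them belonged to one seed family. Their GC content ran from 38.1% to 66.7%, with a median of 46.6%.

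The summed mouse signal was 213528, 223393 and 187273 for naive replicates 1, 2 and 3, and the median mouse signal was 51.3, 61.6 and 37.0. Replicate 3 was the dimmest array by both measures. The scanner software set its flag for signal well above background for all 597 mouse probes, so detection was read against blank and negative-control spots. Each array held 144 of them, of which 127, 132 and 119 were used once outlier spots were left out. The blank level was the median of those used plus 3 median absolute deviations, 56.6, 60.1 and 36.5 on the 3 arrays. A probe counted as above it where at least 50% of its spots were. Naive replicate 2 stood apart in 1 stretch of its surface. With the array divided into 8 bands across and 12 bands down, 720 of the 2125 spots in bands 3 to 5 across and 1 to 8 down were at least 1.5 times as bright as on either other array, against 29 of the 6595 spots elsewhere. The median Hy3 signal of that stretch was 119.6 on replicate 2, 50.02 on replicate 1 and 37.0 on replicate 3, and its median reference signal on replicate 2 was 23.4 against 6.63 elsewhere. The stretch was chosen after its values were seen, so these figures describe it and test nothing. By the same 1.5-fold measure 72 mouse probes were bright on replicate 2 alone, against 11 on replicate 1 alone and 0 on replicate 3 alone. All 72 had at least 1 spot in the stretch, as did 214 of the 597 mouse probes, and no mouse probe had every spot there. None of the 72 was among the 25 brightest probes, and 19 of them passed the blank level on each array. Of the 25 brightest, 5 had at least 1 spot in the stretch. A rise like that of the median spot there falls far short of 1.5-fold for such bright probes, so the measure could hardly mark them. For those of the 72 named below the value on each array is given. Without replicate 2 the number of members above the blanks stayed the same in 21 of the 23 lists of miRNAs described below. The 2 others were surface and lens epithelium and miR-23/27/24. A member must be above on every array used, so leaving out an array cannot lower a count. These counts therefore cannot show whether the stretch mattered.

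MiR-124 was the brightest mouse probe in naive retinal cells, with a signal of 49064, 52849 and 49337 on the 3 arrays (50417 ± 2111, mean ± SD, n = 3). It alone held 24.3% ± 1.78 of the summed signal of all mouse probes, and no other mouse probe reached its level on any array. Its 3 values rest on 4, 2 and 1 spots, since the other spots were marked as outliers, and 1, 4 and 1 of its spots held saturated pixels, though none was marked as a saturated spot. With the outlier spots kept its mean was 46693.

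The next 2 probes stood clear of the rest. MiR-720, whose name was later withdrawn because the sequence is that of a transfer RNA fragment, gave 31471, 30275 and 26483 (29409.9 ± 2604, n = 3), or 14.1% ± 0.593 of the signal. MiR-690 gave 20034, 20621 and 17554 (19403 ± 1628, n = 3), or 9.33% ± 0.0850. The ranges of miR-124, miR-720, miR-690 and the fourth probe, miR-709, did not overlap, so the order of the first 3 was the same on every array. Together these 3 held 47.8% ± 1.81 of the summed signal.

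Below them came a group of 7 probes between 2691 and 6631 in which all neighbours but the last pair overlapped. MiR-709 gave 5828, 6894 and 7170.4 (6631 ± 709, n = 3), and miR-207 gave 6749, 7472 and 4527 (6249 ± 1535, n = 3), so which of them was brighter changed with the array. MiR-875-3p gave 4985, 4763 and 4299 (4682 ± 349.7), miR-691 gave 4358, 4214 and 4611 (4395 ± 201) and miR-668 gave 4149, 3651 and 4322 (4041 ± 349; n = 3 each). MiR-34b-3p, of the p53-induced miR-34 family that is also tied to ciliated cells, closed the 10 brightest with 3091, 2922 and 2060.1 (2691 ± 553, n = 3), and its range lay below that of miR-668. The sixth place went to let-7e, of the let-7 family that times development, but its 4958 came from 1 spot on replicate 2 alone, all its other spots being marked as outliers. With those spots kept let-7e gave 4630, 4882 and 4512 on the 3 arrays, which leaves it among the same neighbours.

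**Figure D1:**
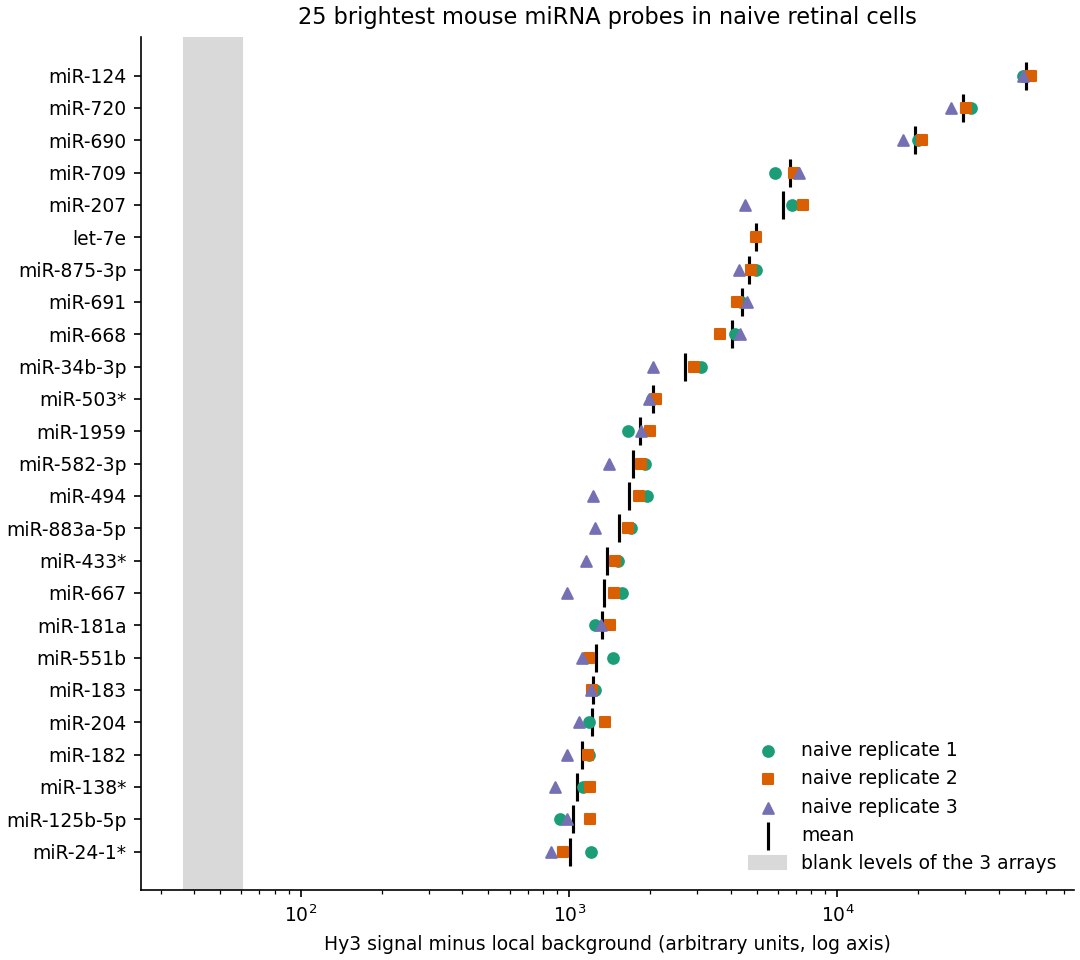
Signal of the 25 brightest mouse miRNA probes (rows, brightest at the top) on a log axis of Hy3 signal minus local background, with 1 point for each naive array, a bar at the mean and a grey band over the blank levels of the 3 arrays. MiR-124, miR-720 and miR-690 stand apart to the right at 50417, 29409.9 and 19403, and most of the neighbours below them overlap.

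MiR-183, miR-204 and miR-182, known from the retina, fell in places 11 to 25, while miR-96 was in place 42 and miR-9 in place 75. The probes in places 11 to 25 ran from a mean of 2047 to 1006. They were miR-503* (2047 ± 60.6), miR-1959 (1836 ± 172), miR-582-3p (1732 ± 278), miR-494 (1667 ± 387), miR-883a-5p (1534 ± 248), miR-433* (1389 ± 203), miR-667 (1345 ± 317), miR-181a (1324 ± 86.5), miR-551b (1255 ± 180.1), miR-183 (1224 ± 25.2), miR-204 (1213 ± 141), miR-182 (1115 ± 119), miR-138* (1068 ± 158), miR-125b-5p (1034 ± 144) and miR-24-1* (1006 ± 180.4; n = 3 each). A star marks the arm of the hairpin that was named as the minor product. Over the whole 25, 20 of the 24 adjacent pairs overlapped in range. The 4 pairs that did not were miR-124 and miR-720, miR-720 and miR-690, miR-690 and miR-709, and miR-668 and miR-34b-3p. Within places 11 to 25 every neighbour overlapped the next in range, which does not describe their order within an array. Some neighbours kept one order on every array, such as miR-503* over miR-1959 (2042, 2111 and 1990 against 1658, 2001 and 1847). Others changed order, such as miR-183 and miR-204 (1253, 1214 and 1207 against 1191, 1365 and 1084). The order within arrays was not tested.

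The signal was concentrated in few probes. The 10 brightest held 62.4% ± 1.78 and the 25 brightest 72.3% ± 1.54 of the summed mouse signal (n = 3; let-7e enters on replicate 2 alone). On the mean of the arrays 5 probes were needed to reach 50% of it, 48 to reach 80%, 150 to reach 90% and 291 to reach 95%. On single arrays the number for 90% was 150, 169 and 123. Since every probe, also one no brighter than a blank, adds to the sum, the count for 90% depends on what is subtracted and fell to 72 when the median blank spot was taken off.

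**Figure D2:**
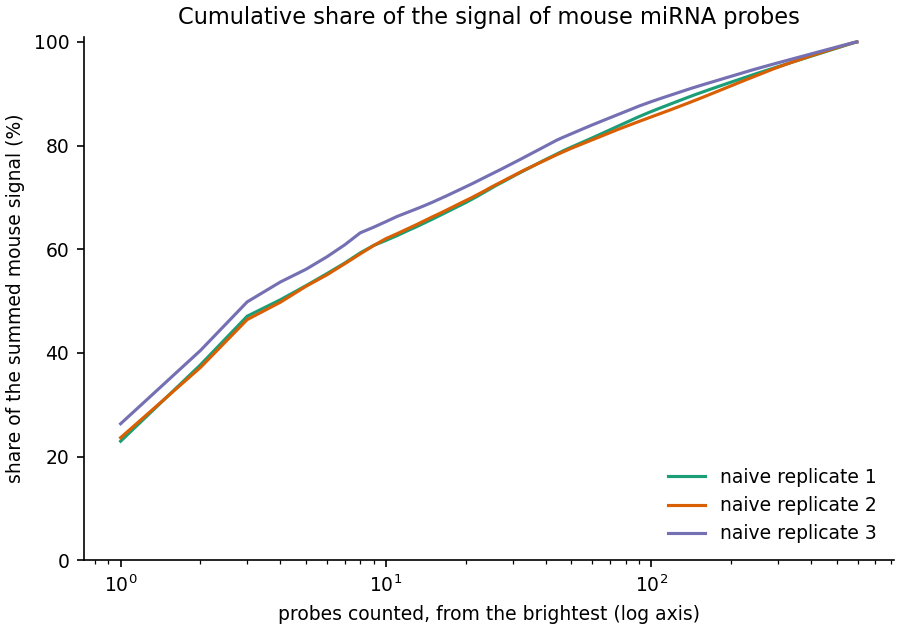
Cumulative share of the summed mouse signal (vertical axis, percent) against the number of probes counted from the brightest (log axis), 1 line for each naive array. All 3 lines start between 22.98% and 26.3% at miR-124 and pass 60% at 10 probes.

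Against the blanks, 253 of the 597 mouse probes were above the level on all 3 arrays (42.4% of those measured), 234 on none and 110 on some. The single arrays gave 282, 312 and 310 probes (301 ± 16.8, n = 3). With replicate 2 left out, 274 were above on both remaining arrays, a count that leaving out an array cannot lower. By limma against the median blank spot of each array, 332 of the 595 probes with enough values passed an adjusted p of 0.05 on the bright side (55.8%). This fit used the Hy3 brightness with no local background subtracted and did not weigh the scatter of the blank spots. A level of 5 median absolute deviations left 211 probes (35.3%), and the 99th percentile of the blank spots left 74 (12.4%). The stricter levels remove dim probes: the median mouse probe had a signal of 53.6, which is 1.03 times the blank level. The 99th percentile was also uneven, at 169, 269 and 72.0 on the 3 arrays, and removed some brighter probes. MiR-294*, for example, passed it on 2 arrays at 5.32 times the blank level on average. Of the 144 blank and negative-control spots, 15 were bright on replicate 2 alone by the 1.5-fold measure.

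The probes nearest to the blank level show how little separates the calls there. Just above it by their mean ratio to the level were miR-33 (1.00 times, above on 2 arrays), miR-433 (1.01 times, on 1 array) and miR-362-3p (1.02 times, on 1 array). Just under it were miR-297c and miR-873 (0.993 times each) and miR-350 (0.989 times), each above on 1 array. MiR-433 and miR-873 had their high value on replicate 2, at 90.8 and 104.1 against 44.2 and 30.5 on replicate 1.

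Detection was read by class of probe as well. Of the 365 mouse probes whose name also holds a human or rat miRNA, 162 passed the blank level on each array (44.4%), and they held 70.1% ± 0.422 of the summed mouse signal. Of the 232 probes that name a mouse miRNA alone, 91 were above (39.2%), and they held 29.9% ± 0.422. Probes made for miRNAs of other species alone are a yardstick for signal that no mouse name accounts for, and 360 of those 1133 were above the blanks on all 3 arrays (31.8%). So a signal above the blanks was also common where no mouse miRNA is named. Of the 25 brightest probes, 16 carried a name shared with human or rat and 9 a mouse name alone, among them miR-690, miR-709, miR-875-3p and miR-691.

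**Figure D3:**
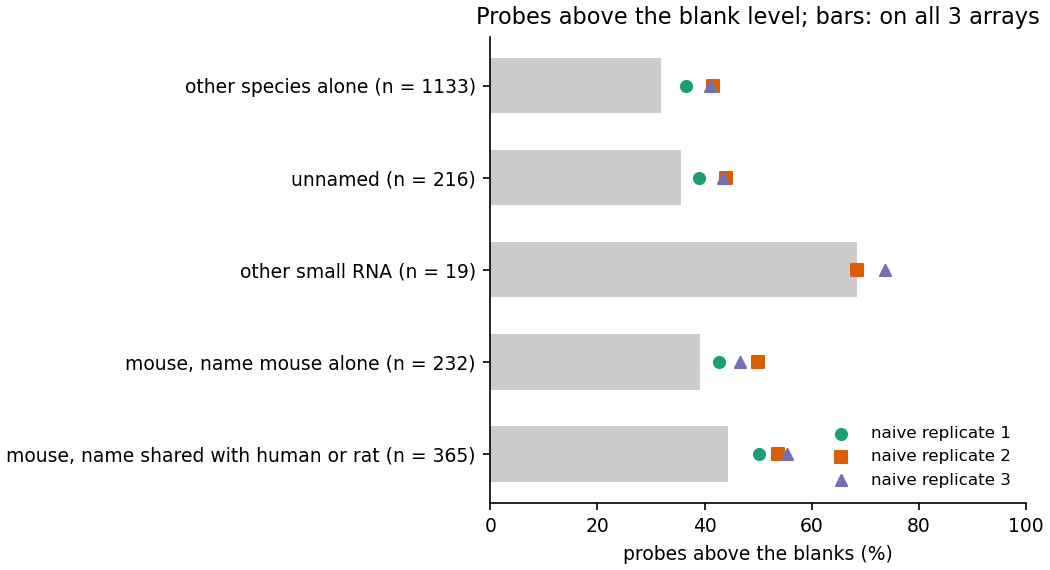
Share of probes above the blank level (horizontal axis, percent) by class of probe, with the bar at the share above on all 3 naive arrays and 1 point for each array. The share on all 3 arrays was 44.4% for mouse names shared with human or rat, 39.2% for mouse names alone and 31.8% for names of other species alone.

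Readings were taken of 6 miRNAs known from the retina (miR-124, miR-183, miR-182, miR-96, miR-204 and miR-9). All 6 passed the blank level on each array, against 42.4% of all mouse probes and 31.8% of probes for other species alone. The 6 were chosen with earlier results of these data known, and 5 of 6 striated muscle miRNAs passed too. The count is therefore no test of the labelled tissue. The photoreceptor cluster was above the blanks in all its members. MiR-183 gave 1253, 1214 and 1207 (1224 ± 25.2, n = 3), a coefficient of variation of 2.06% as scanned and 8.57% after scaling each array to one total. With its outlier spots kept it gave 1253, 1125 and 905. MiR-182 gave 1187, 1179.6 and 978 (1115 ± 119), and miR-96 gave 579.6, 588 and 542 (569.8 ± 24.6; n = 3 each). The range of miR-96, in place 42, lay below those of miR-183 and miR-182, which overlapped each other. The cluster held 1.40% ± 0.0616 of the summed signal. Its members have 3 different seeds although they are made from one stretch of chromosome 6, and miR-182 differs from miR-183 within the seed by A2U and C8A, counted from 1 at the 5′ end with the base of miR-183 first.

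Among 16 miRNAs known from neurons, 10 passed the blank level on each array (42.4% of all mouse probes did), and miR-124 held nearly all of their signal. The list held 24.9986% ± 1.72 of the summed signal, of which miR-124 was 24.3%. MiR-9, of neural progenitors and glia, gave 337, 263 and 209.5 (269.8 ± 64.0, n = 3) in place 75. MiR-129-5p (167 ± 35.5), the minor arm miR-124* (150 ± 16.4), miR-7a (129 ± 12.5) and miR-129-3p (125 ± 15.3) followed. The median over the 16 was 81.0, against 53.6 over all mouse probes.

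Of the neuronal probes not above on all 3 arrays, miR-7b, miR-132, miR-137 and miR-153 were above the blanks on none, with means of 42.5, 36.7, 24.2 and 19.9. MiR-128, which is abundant in brain neurons, gave 37.0, 111 and 32.0, and miR-218, known from motor neurons, gave 45.9, 104 and 27.4. Both were above the blanks on replicate 2 alone and had 75% of their spots in its bright stretch. MiR-212 gave 74.8, 149 and 56.1, with 75% of its spots there too, and was above on the other 2 arrays as well. Without replicate 2 the list had 10 of 16 members above, a count that leaving out an array cannot lower. The part of the stretch in these values was not tested.

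The pigment epithelium pair was present at unequal brightness. MiR-204, which is hosted by the gene Trpm3, gave 1191, 1365 and 1084 (1213 ± 141, n = 3) in place 21. MiR-211, hosted by Trpm1, gave 253, 206 and 149.99 (203 ± 51.4, n = 3) in place 91, and the ranges did not overlap. The mature sequences share the seed and differ at 1 base, A17U with the base of miR-204 first, so cross-capture between these probes cannot be told apart from capture of the named miRNA. In bulk cells, fewer cells of a type and less RNA per cell cannot be told apart either.

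The let-7 family shares 1 seed across its 9 probes, and its members spanned a wide range of brightness. After let-7e, which rests on the single usable spot described above, came let-7c (1081, 881 and 906; 956 ± 109), let-7b (833 ± 89.0), let-7a (661 ± 41.0), let-7f (622 ± 77.1), let-7d (290.5 ± 45.1), let-7g (199 ± 36.9), miR-98 (91.3 ± 16.6) and let-7i (80.9 ± 11.2; n = 3 each). Of the 9, 8 were above the blanks on all 3 arrays (42.4% of all mouse probes were), the exception being let-7e for want of usable spots. Let-7c differs from let-7b by A17G and from let-7a by G19A alone, with the base of let-7c first. It differs from let-7e by U9G and G19A, and from let-7i by G12U, A17G, U18C and G19U. With the whole set so close in sequence, the split of signal between these probes was not tested for cross-capture. The family held 1.94%, 3.83% and 1.84% of the summed signal on the 3 arrays, where the middle value includes let-7e and the others do not.

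Of the other broadly expressed families, miR-30, miR-26, miR-29 and miR-181 had every member above the blanks, where 42.4% of all mouse probes were. All 5 members of the miR-30 family were above the blanks on all 3 arrays, led by miR-30b (963 ± 305), miR-30c (674 ± 70.7) and miR-30a (553, 559 and 561). The miR-26 pair (miR-26b at 979.8 ± 287 and miR-26a at 539.6 ± 69.8) passed the level on each array, as did the 3 members of miR-29, a family that lowers collagen and other matrix messages (miR-29a at 680.3 ± 58.1). So did the 4 members of miR-181, a family of the inner retina, where miR-181a at 1324 was far above miR-181b (219 ± 26.7), miR-181d (113 ± 12.3) and miR-181c (67.1 ± 4.47). These 4 families held 1.35% ± 0.122, 0.726% ± 0.0957, 0.722% ± 0.0574 and 0.831% ± 0.0585 of the summed signal, in the order given.

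The 5 members of the miR-125 and miR-99/100 group, which often share clusters with let-7, were all above the blanks, from miR-125b-5p (922, 1196 and 982) and miR-125a-5p (413 ± 32.6) down to miR-99b (105, 179 and 75.8, the high value on replicate 2), miR-100 (69.7 ± 6.70) and miR-99a (63.6 ± 4.61). Of the miR-23/27/24 group 4 of 5 were above on all 3 arrays (5 of 5 without replicate 2), led by miR-24 (281.5 ± 49.8) and miR-23b (244 ± 63.4). Of the miR-15/16 group 4 of 7 were above, led by miR-503 (230.2 ± 44.8) and miR-195 (165 ± 31.9). Of the miR-17-92 cluster and its paralogues, which are tied to cell division, 4 of 11 were above, led by miR-106b (219 ± 37.1). MiR-92a (66.9, 149 and 62.3) and miR-20b (37.9, 70.0 and 27.5) were high on replicate 2, while miR-17, miR-20a and miR-93 were on none. Over all mouse probes 42.4% were above on all 3 arrays, so the miR-17-92 count was near that share. The single miR-320 probe was above at 75.7 ± 7.44.

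Markers of other cells that a retinal preparation can hold were dim, with some exceptions. Of 8 leukocyte miRNAs 3 passed the blank level on each array, near the 42.4% of all mouse probes. By limma 5 of the 8 passed, where 55.8% of all mouse probes did, so the counts do not set this list apart. The list median of 43.1 lay below the 53.6 of all mouse probes. The 3 above on each array were miR-150 of lymphocytes (123.9, 120.5 and 103), miR-223 of myeloid cells (110.2, 117 and 115) and miR-342-3p (54.2, 61.3 and 47.7). MiR-142-3p, made almost solely by blood-lineage cells, gave 51.3, 53.4 and 35.9 and was above on 1 array; by limma it lay above the median blank (log2 0.35, SE 0.06, adjusted p = 0.00657). MiR-342-5p, miR-142-5p, miR-155 and miR-146a were on none. All 6 miRNAs of the inflammation-inducible list, among them miR-21 (37.2 ± 5.54) and miR-155 (31.6 ± 5.82), were under the level on every array. By limma 0 of 6 passed, where 55.8% of all mouse probes did.

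Of the erythroid markers 1 of 3 was above on all arrays, where 42.4% of all mouse probes were. It was miR-486 at 62.1 ± 6.73, while miR-451 was above on 1 array (43.9 ± 5.48) and miR-144 on none (21.8 ± 3.31). Both smooth muscle and pericyte miRNAs were above, miR-145 with 269.5, 276 and 227 and miR-143 with 139, 152 and 117. Of the endothelial pair miR-126-3p was above with 146, 94.4 and 77.7, and miR-126-5p was on none. The hepatocyte marker miR-122 was on none (38.6 ± 7.59), although limma placed it above the median blank (log2 0.14, SE 0.04, adjusted p = 0.0429). All 6 miRNAs of intestine, kidney and pancreas were on none, with a median of 29.1.

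Lists of cells foreign to the neural retina also had members above the blanks, where the share over all mouse probes was 42.4%. By the blank level the shares for epithelium and pluripotent cells lay below that background and the share for striated muscle above it, all on few probes. By limma 5 of 9 epithelial, 7 of 14 pluripotent and 5 of 6 striated muscle miRNAs passed, where 55.8% of all mouse probes did. Of 9 epithelial miRNAs 2 were above, miR-184 of lens and cornea (586, 364 and 375) and miR-205 of surface epithelium (237, 167 and 131). Of 6 striated muscle miRNAs 5 were above, with miR-133a at 159, 78.5 and 65.4, miR-1 at 169, 73.3 and 47.8, and miR-208a, miR-206 and miR-133b at means of 89.9, 86.3 and 77.6. Of 14 miRNAs of pluripotent cells 5 were above, led by miR-290-5p (448 ± 68.9) and miR-290-3p (138 ± 18.4), and all 4 miR-302 probes were on none.

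The summed signal of these lists differed between arrays. On replicates 1, 2 and 3 it was 1148, 876 and 732 for epithelium, 611, 550.1 and 291 for striated muscle, 1268, 1340.4 and 967 for pluripotent cells, and 196, 141 and 108 for the endothelial pair. Replicate 3 was lowest in all 4, as it was in total mouse signal; replicate 1 was highest in all but the pluripotent list. MiR-184, miR-205, miR-126-3p, miR-1 and miR-133a each had their highest value on replicate 1, as did 153 of the 253 mouse probes above the blanks. MiR-208a and miR-133b had theirs on replicate 2, with 75% and 50% of their spots in its bright stretch, and so did miR-291a-3p and miR-291b-3p of the pluripotent list. Without replicate 2 the counts above the blanks were 3 of 9 for epithelium, 5 of 6 for striated muscle and 5 of 14 for pluripotent cells. Leaving out an array cannot lower such counts. The part of the stretch in these values was not tested.

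**Figure D4:**
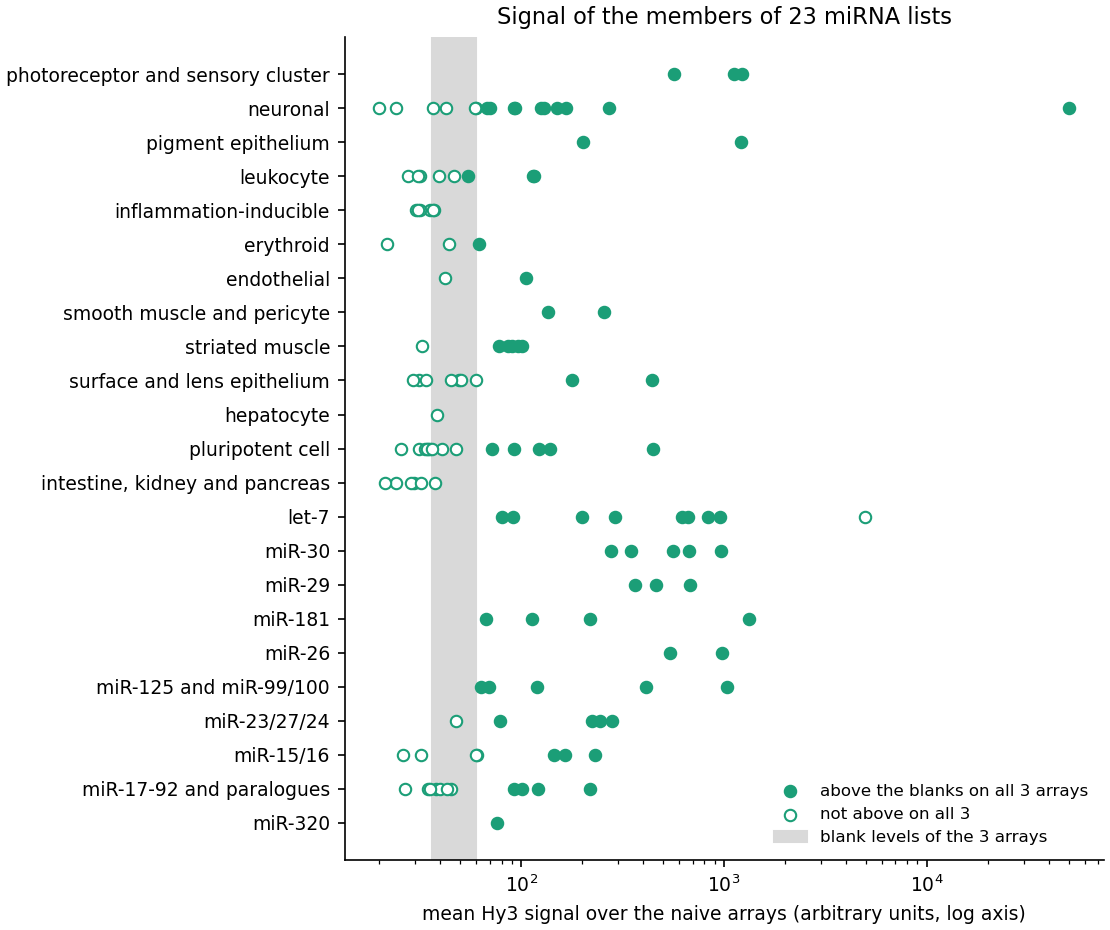
Mean signal over the naive arrays of every member (points) of 23 miRNA lists (rows), on a log axis, filled where the member was above the blanks on all 3 arrays, with a grey band over the blank levels. The photoreceptor cluster, miR-26, miR-29 and miR-30 lie above 200 throughout, while the inflammation-inducible list and the list of intestine, kidney and pancreas lie below 40.

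The spread between arrays was taken on probe medians and the spread between spots on single spots, so their sizes are not directly comparable. Over the 253 probes above the blanks the median coefficient of variation between arrays was 14.99% as scanned and 11.2% once each array was scaled to the same total, with a middle range from 7.07% to 17.2%. Between single spots of a probe within an array the median coefficient of variation was 14.1%. Replicate 3 was the dimmest array and gave the lowest of the 3 values for 217 of the 253 probes. The median after scaling was 9.03% over the 24 probes at a mean of 1000 or more, 12.9% over the 72 between 100 and 200 and 10.4% over the 92 below 100.

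The 3 probes of smallest spread after scaling were miR-690 (0.911%), miR-127 (1.35%, at 77.9, 82.6 and 70.2) and miR-467g (1.53%, at 366, 395 and 324). The 3 of largest spread were miR-719, miR-190b and miR-1. MiR-719 gave 420.2, 59.4 and 67.0 (110.8% after scaling). Its 4 spots on replicate 1 lay between 402 and 453 and those on replicate 2 between 55.5 and 65.6, so the spots of an array agreed while the arrays did not. The 4 spots of miR-1 were as close within each array, from 159 to 180 on replicate 1 and from 44.8 to 57.3 on replicate 3. MiR-190b gave 60.5, 177 and 44.5 with spots from 54.2 to 238 on replicate 2 alone, so here the spots themselves disagreed. Without replicate 2 miR-719 and miR-1 still had the largest spread, followed by miR-133a, and miR-190b fell to place 96 of 253 at 12.5%.

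Probes for both arms of a hairpin were measured for 108 star names, and in 72 of these pairs at least 1 arm was above the blanks on all 3 arrays. The star arm was dimmer with no overlap of ranges in 44 of the 72, brighter with no overlap in 20, and overlapped its partner in 8. Among the dimmer ones was miR-124*, at 158, 161 and 131. In the other direction miR-433* at 1526, 1487 and 1156 was well above the blanks while miR-433 at 44.2, 90.8 and 27.04 was above on replicate 2 alone, so no ratio is given. Where both arms were above on all 3 arrays, miR-138* was 15.3 times as bright as miR-138 (1068 ± 158 against 69.9 ± 13.9) and miR-503* 8.89 times as bright as miR-503 (2047 ± 60.6 against 230.2 ± 44.8; n = 3 each). MiR-138 lay not far above the blank level, which averaged 51.1 over the arrays, so its ratio rests on a dim partner. These ratios compare the brightness of different probes, as the order does.

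Of the 25 brightest probes, 4 named miRNAs of one stretch of chromosome 12, the plus-strand span chr12:109591729-109734797 of 143069 bases that belongs to the imprinted Dlk1-Dio3 region. From the first to the last base these were miR-433*, miR-494, miR-667 and miR-668. How many of all mouse probes name miRNAs of this stretch was not counted. MiR-494 gave 1950.1, 1825 and 1226, miR-667 gave 1580.4, 1470.2 and 984, and miR-433* gave 1526, 1487 and 1156. All 3 were lowest on replicate 3, as were 217 of the 253 mouse probes above the blanks. MiR-668 was highest there, as were 5 of the 253.

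The Hy5 channel of the same arrays, which held the pooled reference, ranked the probes much the same way. Of the 25 brightest probes 22 were also among the 25 brightest there, and of the first 10, 9 were among its first 10. Spearman's rho between the channels was 0.955 over the 597 probes and 0.877 over the 253 above the blanks; the points share arrays, spots and capture probes, and the pool contains the naive RNA. MiR-720 ranked first and miR-124 second in the reference channel, where miR-124 held 16.5% of the signal. MiR-183, in place 20 by Hy3, was in place 43 by Hy5.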

How the data were processed

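The 3 naive arrays of 6 were used. Per the labels, Hy3 marked the sample and Hy5 the pool. The authors deposited scanner output with an intensity for each of 8720 spots and its local background in both channels. Per the file headers, Agilent Feature Extraction 9.1.3.1 wrote them. No normalization was applied to these deposited intensity columns here.

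Spots marked as non-uniform or population outliers were left out (1.51% of mouse spots), and a probe with 4 spots was reduced to its median. Negative signals counted as 0 in sums. Shares were computed within each array. Against the blanks, log2 of each probe over the median blank was fitted with an intercept alone in limma 3.58.1 (R 4.3.3, lmFit and eBayes with trend), with Benjamini-Hochberg adjustment at 0.05. Here the local background was not subtracted from probes or blanks. The median blank entered as a fixed value, so these p-values measure the spread between arrays and not the scatter of blank spots. The fit was checked on simulated data. The number of arrays limits the precision.

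Named are the 25 brightest mouse probes, up to 6 members of each of 23 lists with the brightest first, the 3 probes of smallest and of largest spread, the 3 on either side of the blank level and the 5 brightest of other species alone. The members and lists were chosen with earlier results of these data known. Other probes named, such as the lower members of the neuronal and let-7 lists, the star pairs and the reason for looking at replicate 2, were chosen after their values were seen. Older names were assigned to an arm of RefSeq by hand. The disease arrays and the table of ratios were not used here.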

Additional observations from a re-analysis of the deposited data

Results flagged for a closer look

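Signal outside the mouse probes was above the blanks on all 3 naive arrays for 360 of the 1133 probes that name miRNAs of other species alone. The 5 brightest of these were hsa-miR-1826, whose name was later withdrawn (55739, 51801 and 57202 on the 3 arrays), hsa-miRPlus-E1078 (49471 and 54083, with no usable spot on replicate 3), hsa-miRPlus-E1218 (33477, 24646 and 23592), hsa-miRPlus-E1253 (19699, 21913 and 22137) and hsa-miRPlus-E1103 (17633, 19419 and 23199). On means, hsa-miR-1826 at 54914 was brighter than every mouse probe. The same held for 77 of the 216 probes that carry no name and for 13 of the 19 capture probes for other small RNAs, led by U6-snRNA-2 (6916, 6117 and 6059) and 5SrRNA-5 (6687, 6589 and 5430.2). The sequences of these probes were not used here.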

How the results depend on the processing

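The share of the 10 brightest probes, 62.4%, was 64.2% with the software's processed signal, 58.2% with no local background subtracted, 67.7% with the median blank spot subtracted, 67.3% with only probes above the blanks in the total, and 69.0% with only names shared with human or rat, an alternative chosen after seeing the data. The share of miR-124, 24.3%, was 26.4% with the median blank spot subtracted, 26.1% with only probes above the blanks in the total, 16.5% in the reference channel and 34.7% with only shared names. The number of probes that hold 90% of the signal, 150, was 236 with no local background subtracted, 72 with the median blank subtracted and 78 with only probes above the blanks. The 253 probes above the blanks became 74 at the 99th percentile of the blank spots. Without one replicate at a time, the share of the 10 brightest ran from 61.4% to 63.5%, that of miR-124 from 23.3% to 25.001%, the number for 90% from 139 to 161, the probes above the blanks from 255 to 274 and those called by limma from 265 to 378. The count of probes above the blanks cannot fall when an array is left out. The median coefficient of variation, 11.2% after scaling, ran from 7.59% to 10.2% over pairs of arrays. With the spots of the bright stretch of replicate 2 left out, also chosen after seeing the data, the 3 values were 62.9%, 24.5% and 136, and 24 of the 25 brightest probes stayed among them. No paired analysis was possible because a single group was used and no groups were compared. Depth of signal limits the dim end: the median mouse probe was at 1.03 times the blank level.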
